A study of Mus musculus with 8 samples.

Results

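The glucose and lactate transporters are 10 genes picked by name for their place in carbohydrate transport. No threshold on their values was used, but earlier results of these data were known. They are 6 facilitative glucose carriers (Slc2a1, Slc2a3, Slc2a4, Slc2a8, Slc2a10 and Slc2a12), 3 monocarboxylate carriers (Slc16a1, Slc16a3 and Slc16a7) and Bsg. The last encodes the chaperone of the Slc16a1 and Slc16a3 products. Every array spot whose platform annotation carries one of these symbols belonged to the set, which gave 20 of the 62976 spots. Of the 10 genes, 9 lay among the 17014 genes tested out of 24306 named ones. Slc2a4 was left out of the tests because its brightest spot averaged less than a log2 intensity of 3.39, the level under which the dimmest 30% of genes lie. In total 13 of the 20 spots were above that level.

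The study measured transcripts on a single-colour Agilent array in primary fibroblasts isolated from mouse hearts and grown in DMEM with serum. The 4 groups were wild-type cells in normoxia, wild-type cells after 6 h in a chamber at 1% O2, and cells labelled Siah knockout under the same normoxic or hypoxic conditions, with 2 samples in each group. The design text calls these samples biological replicates. Strain, age, which Siah gene was altered and whether samples of a number share an animal are not given in the sources used here, and p-values reflect no more than how much these samples varied. Values are the deposited log2 intensities, and 2 arrays a group limit the precision. A value can be set against other samples for the same spot but not against another spot.

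The label check and the make-up of the cultures bear on all comparisons. Siah2 lay between 8.71 and 9.55 in wild-type samples, at 6.60 and 7.39 in knockout-labelled normoxia, and at 9.29 and 8.87 in knockout-labelled hypoxia; Siah1a lay between 8.78 and 9.44 in all samples. It is not known whether these spots lie within the altered part of a gene, so they do not check the label. The Y-linked Eif2s3y was between 8.80 and 9.10 in wild-type samples and between 3.39 and 4.01 in knockout-labelled samples, so that genotype and the sex of the animals cannot be told apart. All 12 fibroblast markers were above the dim level, and their mean ran from 12.96 to 13.33 over the samples. On average 8 of the 12 were lower in knockout-labelled cells, with a median difference of -0.08. Single markers differed more, in both directions. Thy1 read 13.10 to 13.57 in wild-type and 14.12 to 14.52 in knockout-labelled samples, and Dcn 14.65 to 14.96 and 13.93 to 14.15. The mean of 15 macrophage and leukocyte markers was 11.82 to 12.34 in wild-type and 10.53 to 11.43 in knockout-labelled samples. Of 10 cardiomyocyte markers 7 were above the dim level, but Myh6, Myh7 and Tnni3 were not. Actc1 and Tnnt2 averaged 14.45 and 9.92, and the rest of the 7 averaged 3.71 to 4.59. Tnnt2 lay between 8.45 and 9.51 in wild-type and between 10.71 and 10.93 in knockout-labelled samples. On average 2 of the 7 were lower in knockout-labelled cells. The adipocyte markers Adipoq and Plin1 were also below the dim level. In such bulk RNA fewer cells of a type and less RNA per cell cannot be told apart.

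Facilitative glucose carriers of the SLC2 family let glucose cross membranes along its gradient, and GLUT1, the product of Slc2a1, supplies basal uptake in most proliferating cells. Cells that run glycolysis at low oxygen must also export lactate with a proton. This is done by monocarboxylate carriers of the SLC16 family: MCT4, encoded by Slc16a3, is the exporter of highly glycolytic cells, while MCT1 (Slc16a1) and the high-affinity MCT2 (Slc16a7) carry lactate and pyruvate in either direction. MCT1 and MCT4 reach the plasma membrane together with basigin, the product of Bsg. Slc2a1 and Slc16a3 are known target genes of the hypoxia-inducible factor HIF, whose level is set by prolyl hydroxylases, and Siah ligases are known to act on those hydroxylases.

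With low oxygen the transporters differed in size and direction, and none was called. Slc16a3 and Slc2a1 were higher in every hypoxic sample than in any normoxic sample, by 4.75-fold and 2.80-fold on average over the genotypes. Bsg showed the same separation at a smaller size, 1.27-fold. Slc2a3 and Slc16a1 were higher in hypoxia in each pair of samples that share a genotype and a number. Slc2a8, Slc2a10, Slc2a12 and Slc16a7 had averages below normoxia, the lowest being 0.751-fold for Slc16a7. Between the genotypes Slc16a3 had the largest average difference of the 9 tested transporters and was lower in knockout-labelled cells at both oxygen levels.

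For Slc16a3 the normoxic wild-type samples read 12.003 and 11.89 on the log2 intensity scale and the hypoxic ones 13.87 and 13.89. The normoxic knockout-labelled samples read 9.89 and 11.01 and the hypoxic ones 13.09 and 12.94. The 4 groups did not overlap one another, and their order from low to high was knockout-labelled normoxia, wild-type normoxia, knockout-labelled hypoxia and wild-type hypoxia. With 2 samples in a group such an order can arise by chance, and its share over all genes was not counted. Normoxic knockout-labelled samples were furthest apart, by more than 1 log2 unit, while the wild-type samples of each condition nearly coincided. The log2 fold change with hypoxia was 1.94 (SE 0.36) in wild-type cells, 2.56 (SE 0.36) in knockout-labelled cells and 2.25 (SE 0.25) on average. Limma's adjusted p over all genes for the average was 0.151, so the gene was not called at 0.05. It ranked 10 of 17014 genes by p and 16 by the size of the increase. A fit with a variance trend called it (adjusted p = 0.0309). The adjusted p ran from 0.0309 to 0.669 over all alternatives. The second Slc16a3 spot, named for a predicted transcript, averaged 2.69 and lay under the dim level, so the mean of both spots gave a smaller change of 1.09.

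Slc2a1 was read by 1 spot. Its normoxic wild-type samples read 11.70 and 11.02 and the hypoxic ones 12.96 and 13.07. Its normoxic knockout-labelled samples read 10.77 and 11.81 and the hypoxic ones 12.55 and 12.66. The normoxic samples of the genotypes overlapped, and all hypoxic samples lay above them. The wild-type hypoxic pair was in turn above the knockout-labelled hypoxic pair, a separation of 2 against 2 samples whose share over all genes was not counted. The log2 fold change with hypoxia was 1.66 (SE 0.39) in wild-type cells, 1.31 (SE 0.39) in knockout-labelled cells and 1.49 (SE 0.27) on average, with an adjusted p of 0.554 for the average. The knockout-labelled value was 0.79 without knockout-labelled normoxia replicate 1 and 1.83 without replicate 2 of that group. This adjusted p ran from 0.167 to 1 over the alternatives, none of which called the gene.

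**Figure D1:**
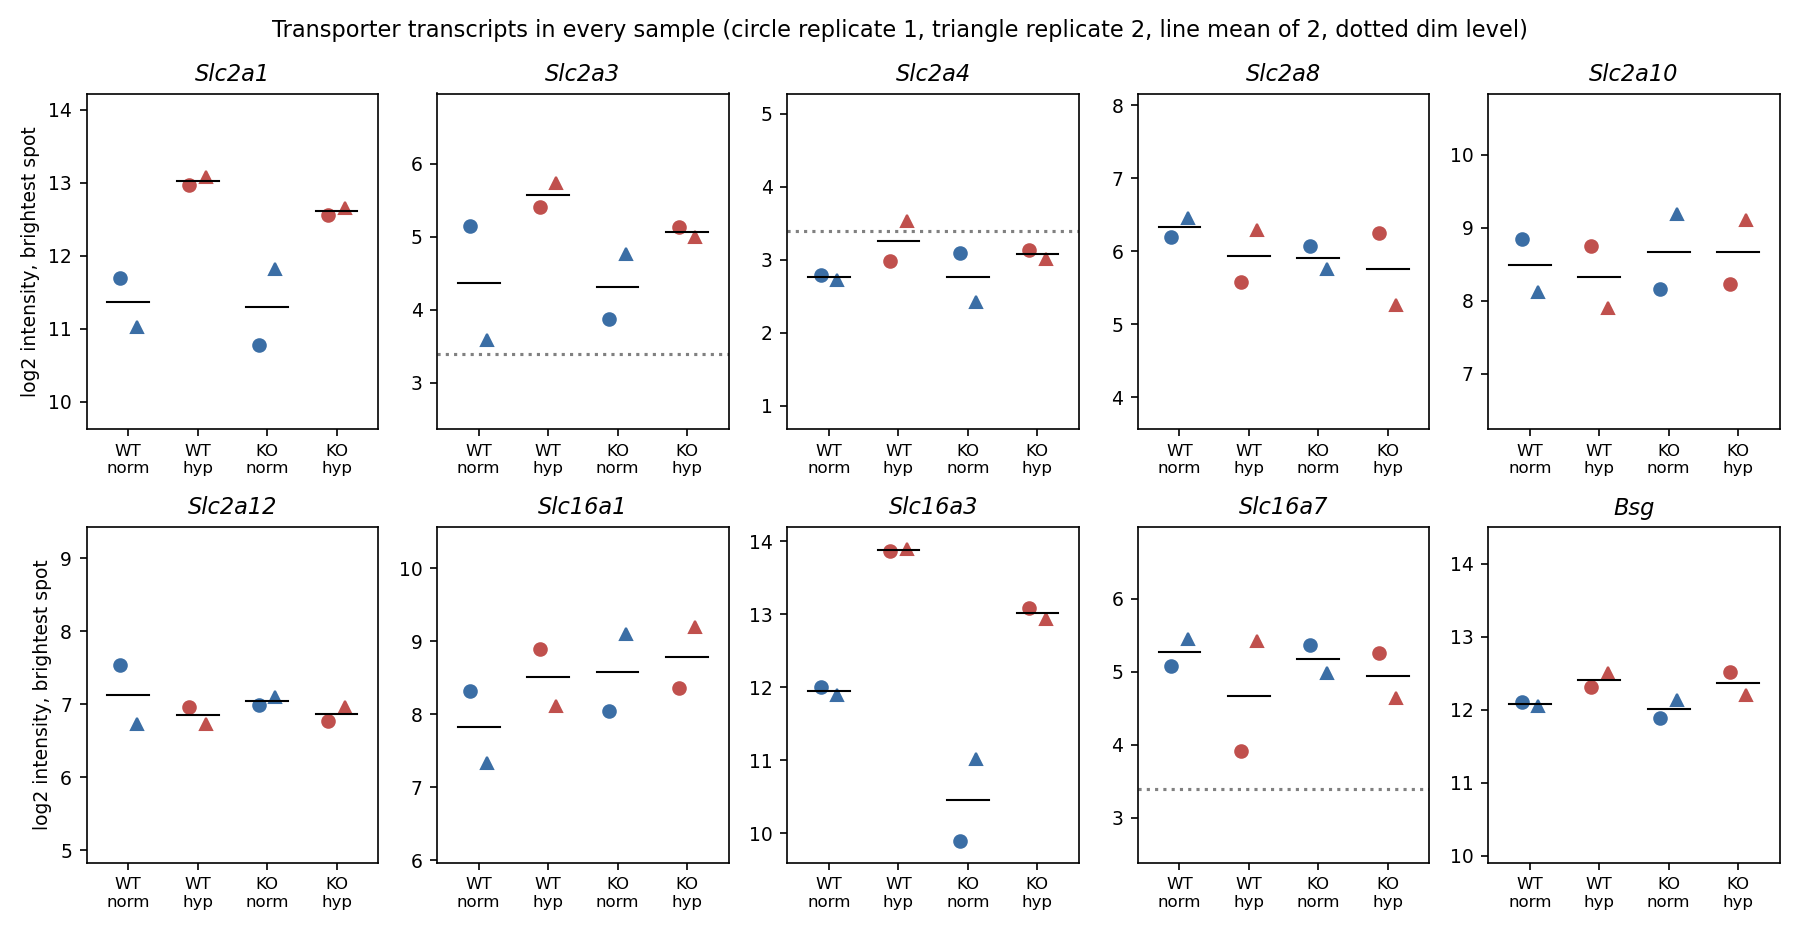
Log2 intensity of the brightest spot of each of the 10 transporter genes (vertical axes, each gene with its own range) in the 4 groups; circles are replicate 1, triangles replicate 2, lines the mean of 2 samples, blue normoxia, red hypoxia, and the dotted line the dim level of 3.39. Slc2a1, Slc16a3 and Bsg have all 4 hypoxic samples above all 4 normoxic samples.

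The stretch of 250 bases before the annotated start of a gene was read for the letters of the core HIF motif, since the transporters that were higher in hypoxia include known HIF targets. RefSeq promoters of GRCm38.p6 were matched by symbol for 6 of the 10 genes. The motif was searched as ACGTG and as GCGTG on both strands. Of 32851 promoter windows of the same length, 16.6% held ACGTG, 28.2% held GCGTG and 38.6% held either. Slc16a3 (chr11:120948817-120949066, plus strand) held ACGTG at -27 and again at -14, counted from the start to the first base of each match. Of all windows 6.81% had 2 or more ACGTG matches over both strands. That share counts a palindrome read on both strands as 2 matches, so it is not the share with 2 separate sites. Slc2a1 (chr4:119108495-119108744, plus strand) held ACGTG at -36 and GCGTG on the other strand at -61. Slc16a1 (chr3:104638414-104638663, plus strand) held 4 matches, of which the ones at -200 and -199 are the same palindrome read on both strands. Slc2a10 (chr2:165503647-165503896, plus strand) had neither motif, as did 61.4% of all windows. These 4 are shown 5′ to 3′, with matches in capitals (those on the other strand appear as their complement), because they set the transporters with the largest hypoxia differences, Slc16a3 and Slc2a1, beside 2 with smaller ones. A match is a description of the letters and not a bound site.
Slc16a3: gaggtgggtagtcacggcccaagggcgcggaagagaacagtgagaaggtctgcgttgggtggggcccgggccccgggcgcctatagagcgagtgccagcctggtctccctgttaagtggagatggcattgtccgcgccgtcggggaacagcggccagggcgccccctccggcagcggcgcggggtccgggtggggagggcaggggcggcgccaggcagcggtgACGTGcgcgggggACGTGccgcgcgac
Slc2a1: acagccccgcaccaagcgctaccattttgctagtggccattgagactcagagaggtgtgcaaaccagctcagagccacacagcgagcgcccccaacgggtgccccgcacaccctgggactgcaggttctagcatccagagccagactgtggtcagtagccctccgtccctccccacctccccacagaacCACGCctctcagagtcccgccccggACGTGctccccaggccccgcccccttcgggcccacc
Slc16a1: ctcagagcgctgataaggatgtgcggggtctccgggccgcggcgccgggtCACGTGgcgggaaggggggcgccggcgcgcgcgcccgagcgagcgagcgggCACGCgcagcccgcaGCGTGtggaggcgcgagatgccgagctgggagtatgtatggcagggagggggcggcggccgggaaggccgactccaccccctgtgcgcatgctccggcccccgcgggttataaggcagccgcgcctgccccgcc
Slc2a10: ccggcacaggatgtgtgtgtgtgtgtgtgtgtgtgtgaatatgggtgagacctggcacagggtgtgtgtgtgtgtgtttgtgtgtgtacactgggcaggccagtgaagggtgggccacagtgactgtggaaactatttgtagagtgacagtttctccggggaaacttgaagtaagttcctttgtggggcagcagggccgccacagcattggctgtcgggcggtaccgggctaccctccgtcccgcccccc

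Slc2a8 held GCGTG on the other strand at -173 and Slc2a12 held neither motif. The windows of Slc16a1 and Slc16a3 were rich in G and C (76.4% and 73.6%), as was that of Slc2a1 (66.4%), against a median of 52.4% over all windows and 48.8% to 58% for the other 3 transporters.

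**Figure D2:**
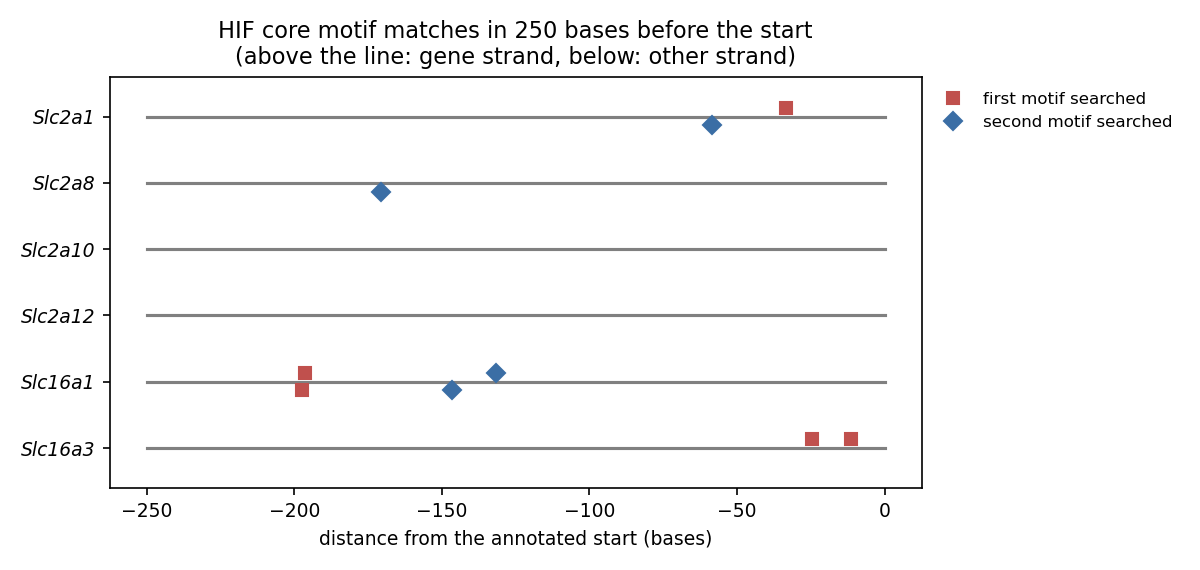
Matches to the HIF core motif (squares for the first motif searched, diamonds for the second) in the 250 bases before the annotated start of 6 transporter genes, by distance from the start in bases; marks above a line are on the gene's strand and marks below it on the other strand. Slc16a3 and Slc2a1 have matches within 61 bases of the start, and Slc2a10 and Slc2a12 have none.

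The remaining glucose carriers differed among themselves. Slc2a3 encodes GLUT3, a high-affinity carrier best known from neurons and white blood cells. Its brighter spot gave 5.15 and 3.58 in the normoxic wild-type samples and 5.40 and 5.74 in the hypoxic ones. In knockout-labelled cells the values were 3.87 and 4.76 under normoxia and 5.13 and 4.995 under hypoxia. The highest normoxic sample overlapped the hypoxic ones, and the normoxic pairs were wide apart. Its average log2 fold change of 0.98 (SE 0.39, adjusted p = 1) came with a second spot of the same transcript that averaged 3.17, below the dim level, and gave -0.42. Without wild-type normoxia replicate 2 the average was 0.58.

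Slc2a10 encodes GLUT10, whose loss causes arterial tortuosity syndrome in humans. It gave 8.84 and 8.13 in the normoxic wild-type samples and 8.75 and 7.90 in the hypoxic ones. The knockout-labelled samples read 8.17 and 9.18 under normoxia and 8.23 and 9.11 under hypoxia. Samples of the same number nearly coincided between the oxygen levels, and the average log2 fold change was -0.09 (SE 0.37, with a 95% interval of -0.97 to 0.80). The spread was between numbers: replicate 2 was 0.78 lower than replicate 1 in wild-type cells, a difference of -0.78, and 0.95 higher in knockout-labelled cells.

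Slc2a8 encodes GLUT8, an intracellular carrier. It was 6.19 and 6.45 in the normoxic wild-type samples and 5.58 and 6.29 in the hypoxic ones. In knockout-labelled cells the values were 6.07 and 5.76 under normoxia and 6.25 and 5.26 under hypoxia. The groups overlapped, and the average log2 fold change was -0.27 (SE 0.28, interval -0.95 to 0.41). Slc2a12 encodes GLUT12, and the brightest of its 3 spots gave 7.53 and 6.72, 6.96 and 6.73, 6.99 and 7.10, and 6.76 and 6.96 in the same order of groups, with an average of -0.23 (SE 0.21). That spot was annotated through a cDNA clone, and the 2 spots of the RefSeq transcript averaged 3.59 and 3.11. Slc2a4 encodes GLUT4, the insulin-responsive carrier of muscle and fat. Its brighter spot stayed between 2.42 and 3.53 in all samples, with 7 of the 8 values under the dim level, so no level can be ordered between groups.

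The 95% intervals of the average hypoxia difference included 0 for both other monocarboxylate carriers. Slc16a1 gave 8.31 and 7.33 in the normoxic wild-type samples and 8.89 and 8.11 in the hypoxic ones. The knockout-labelled samples read 8.05 and 9.10 under normoxia and 8.36 and 9.19 under hypoxia. It was higher in hypoxia in all 4 pairs of the same genotype and number, by 0.10 to 0.78. Over both oxygen levels replicate 2 differed from replicate 1 by -0.88 in wild-type cells and by 0.95 in knockout-labelled cells, almost the pattern of Slc2a10. The mean of the macrophage and leukocyte markers went the other way, at 11.84 and 11.82 in replicate 1 and 12.34 and 12.32 in replicate 2 of wild-type cells, and at 11.43 and 11.41 in replicate 1 and 10.53 and 10.58 in replicate 2 of knockout-labelled cells. Its part in these carriers was not tested. The average log2 fold change of Slc16a1 with hypoxia was 0.44 (SE 0.38, interval -0.49 to 1.37), and it ran from 0.18 without knockout-labelled normoxia replicate 1 to 0.71 without knockout-labelled normoxia replicate 2.

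Slc16a7 was the member with most spots, 6, of which 4 were above the dim level. Its brightest gave 5.08 and 5.45 in the normoxic wild-type samples and 3.91 and 5.42 in the hypoxic ones. In knockout-labelled cells the values were 5.37 and 4.99 under normoxia and 5.25 and 4.63 under hypoxia. The average log2 fold change was -0.41 (SE 0.36), and the other 3 spots above the dim level gave 0.23, 0.09 and -0.09, so the spots disagreed in sign. In that order these 3 gave -0.86, 0.15 and -0.75 in wild-type cells and 1.32, 0.03 and 0.58 in knockout-labelled cells. Bsg gave 12.10 and 12.05 in the normoxic wild-type samples and 12.32 and 12.50 in the hypoxic ones. The knockout-labelled samples read 11.89 and 12.13 under normoxia and 12.52 and 12.21 under hypoxia. All hypoxic samples were above all normoxic ones, although the lowest of the former and the highest of the latter were within 0.08 of each other. Its average log2 fold change was 0.35 (SE 0.14, adjusted p = 1).

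As a set, 5 of the 9 tested transporters were higher and 4 lower in hypoxia, in wild-type cells, in knockout-labelled cells and on average. The median log2 fold change of the 9 was 0.34 in wild-type cells, 0.20 in knockout-labelled cells and 0.35 on average, and that of all 17014 genes was -0.01, -0.02 and -0.01. No transporter was called at an adjusted p under 0.05 in these 3 comparisons, nor was any other gene (0% of all genes). Limma gave an unadjusted p under 0.05 to 616 genes in wild-type cells, 443 in knockout-labelled cells and 639 on average, all fewer than the 851 that such a threshold gives by chance. Higher at such a p were 2 transporters in wild-type cells, Slc2a1 and Slc16a3, against 2.24% of all genes. Slc2a3 joined them without wild-type normoxia replicate 1. The same 2 were higher in knockout-labelled cells, against 1.43%, but 1 was without knockout-labelled normoxia replicate 1 or knockout-labelled hypoxia replicate 2. On average 4 were higher (Slc2a1, Slc2a3, Slc16a3 and Bsg), against 2.28% of all genes, and 0 were lower, against 1.48%. With any 1 sample left out, 2 or 3 transporters had such a p. All 4 hypoxic samples lay above all 4 normoxic samples for 3 of the 9 transporters (Slc2a1, Slc16a3 and Bsg), against 1.35% of all genes, and below them for 0, against 0.817%. Because the members were chosen with earlier results of these data known, these shares describe the set and do not test it.

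**Figure D3:**
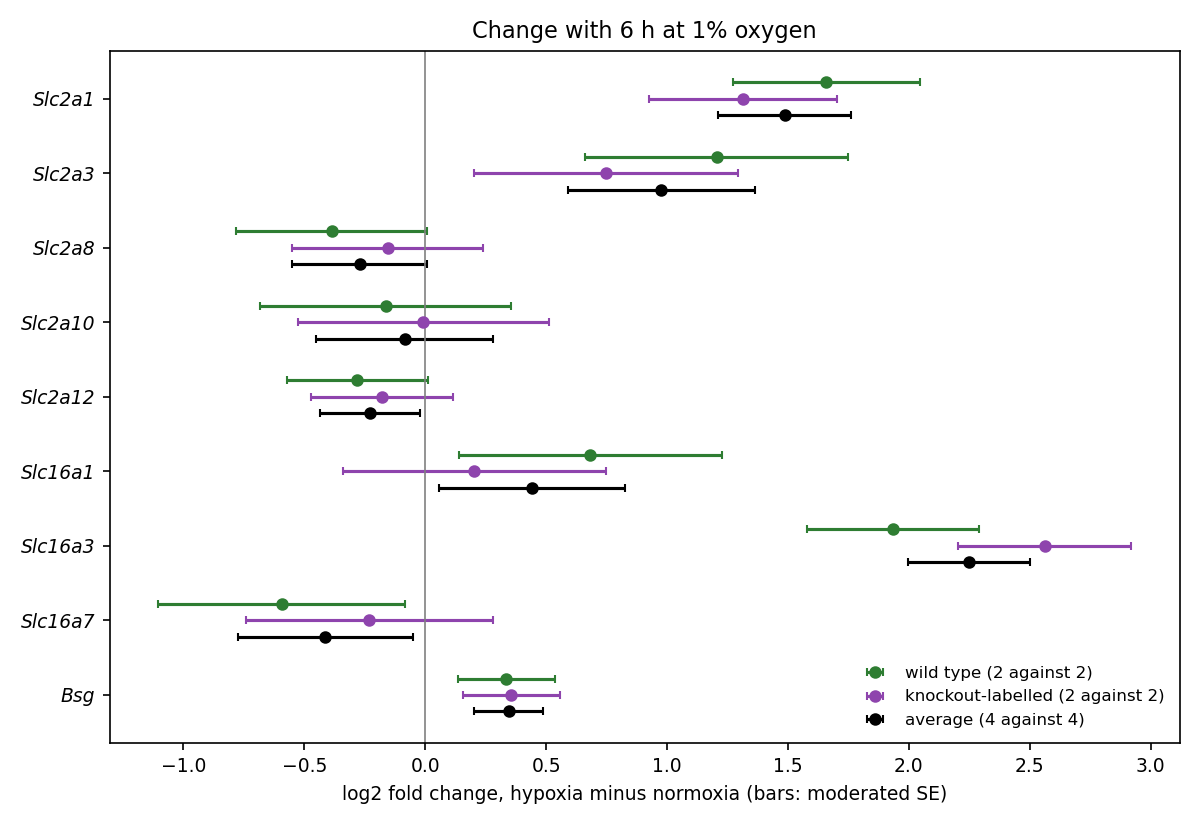
Log2 fold change with 6 h at 1% O2 (horizontal axis, hypoxia minus normoxia) of the 9 tested transporters in wild-type cells (green), in knockout-labelled cells (purple) and on average (black), with moderated standard errors as bars. Slc16a3 and Slc2a1 lie between 1.31 and 2.56, and Slc2a8, Slc2a10, Slc2a12 and Slc16a7 lie at or below 0.

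Setting samples of the same genotype and number side by side gave 4 differences per gene, although no label says that a number marks a shared culture. For Slc16a3 these were 1.87 and 2.00 in wild-type cells and 3.20 and 1.93 in knockout-labelled cells, that is 3.65-fold to 9.16-fold. For Slc2a1 they were 1.27 and 2.05 in wild-type cells and 1.78 and 0.85 in knockout-labelled cells, or 1.80-fold to 4.15-fold. Knockout-labelled replicate 1, which started lowest for both genes in normoxia, had the larger difference of its genotype. The 4 differences of Slc2a3 ran from 0.23 to 2.16, those of Bsg from 0.08 to 0.64, and those of Slc16a7 from -1.17 to -0.02.

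**Figure D4:**
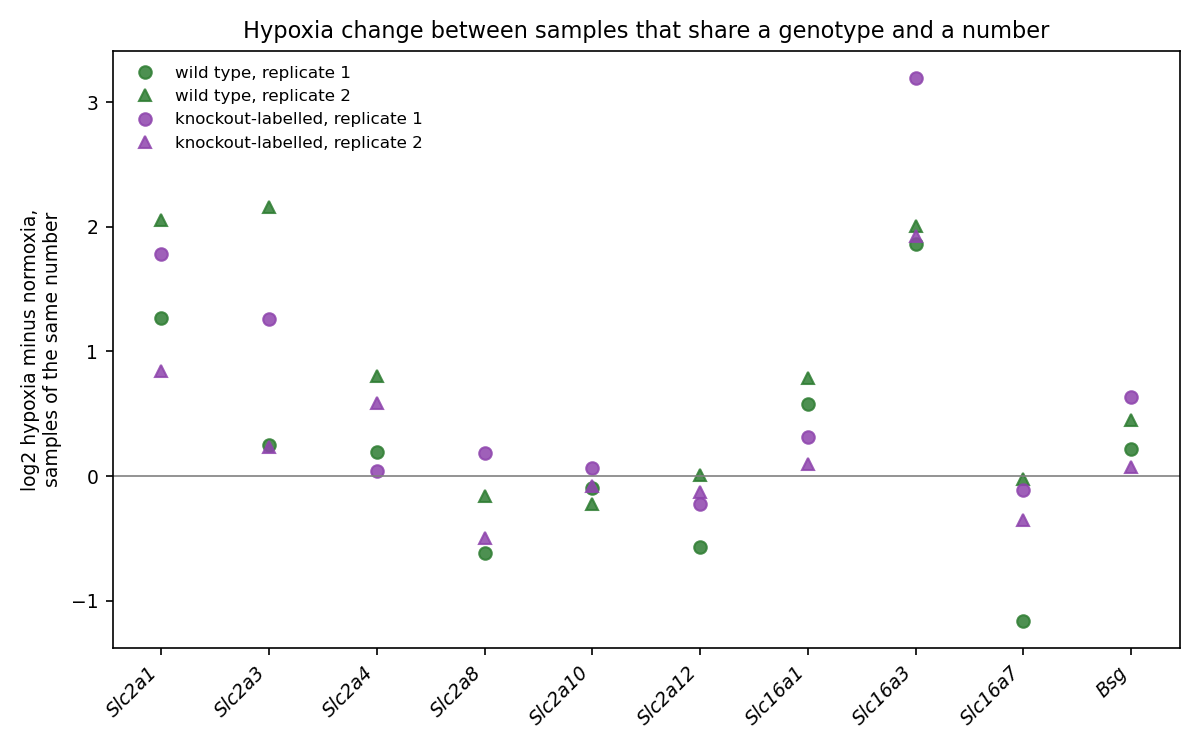
Log2 change with hypoxia between samples that share a genotype and a replicate number (vertical axis) for the 10 transporters; green is wild type, purple knockout-labelled, circles replicate 1 and triangles replicate 2. The 4 changes of Slc16a3 lie between 1.87 and 3.20 and those of Slc2a1 between 0.85 and 2.05, and Slc2a10 stays between -0.23 and 0.06.

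The genotype comparison asks whether the transporters differ when Siah is labelled as lost. Slc16a3 was lower in knockout-labelled cells by a log2 difference of -1.50 (SE 0.36, adjusted p = 0.520) in normoxia, -0.87 (SE 0.36, adjusted p = 0.799) in hypoxia and -1.18 (SE 0.25, adjusted p = 0.196) on average, that is to 0.441 of the wild-type level. Both knockout-labelled samples lay below both wild-type samples at each oxygen level, but the share of all genes with such a separation was not counted. Slc16a3 was not called in any comparison between the genotypes. Without knockout-labelled normoxia replicate 1 the difference was -0.94 in normoxia and -0.90 on average, and without replicate 2 of that group it was -2.05 and -1.46. The mean of both spots gave -0.63 in normoxia and on average. The smooth muscle and pericyte markers, 7 of 8 above the dim level, had a mean of 7.94 in knockout-labelled normoxia replicate 1 and 8.81 in replicate 2. In knockout-labelled hypoxia this mean was 8.59 and 8.76, against 9.10 to 9.42 in wild-type samples. Of the 7 tested ones 5 were lower in knockout-labelled cells on average, with a median difference of -0.61. Of the macrophage and leukocyte markers 14 of 14 tested ones had lower values in knockout-labelled cells, with Cd163 under the dim level, and they had a median difference of -1.24. Within knockout-labelled normoxia their mean was 11.43 and 10.53, the reverse order of Slc16a3 at 9.89 and 11.01. The part of these cell types in the Slc16a3 difference was not tested.

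The other tested transporters showed smaller differences between the genotypes. Slc2a1 had an average of -0.24 (SE 0.27, interval -0.90 to 0.43), Slc2a3 -0.28 (SE 0.39), Slc2a8 -0.30 (SE 0.28) and Bsg -0.06 (SE 0.14, interval -0.40 to 0.29). Slc16a1 and Slc2a10 were higher on average, by 0.51 (SE 0.38) and 0.27 (SE 0.37). For both, the replicates of a genotype were further apart than the genotype means. Slc16a7 had 0.09 (SE 0.36) and Slc2a12 -0.03 (SE 0.21). The wide intervals mean that these values do not show equal levels. For Slc2a1, Slc2a3, Slc2a12, Slc16a7 and Bsg the sign of the average turned when 1 sample was left out.

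**Figure D5:**
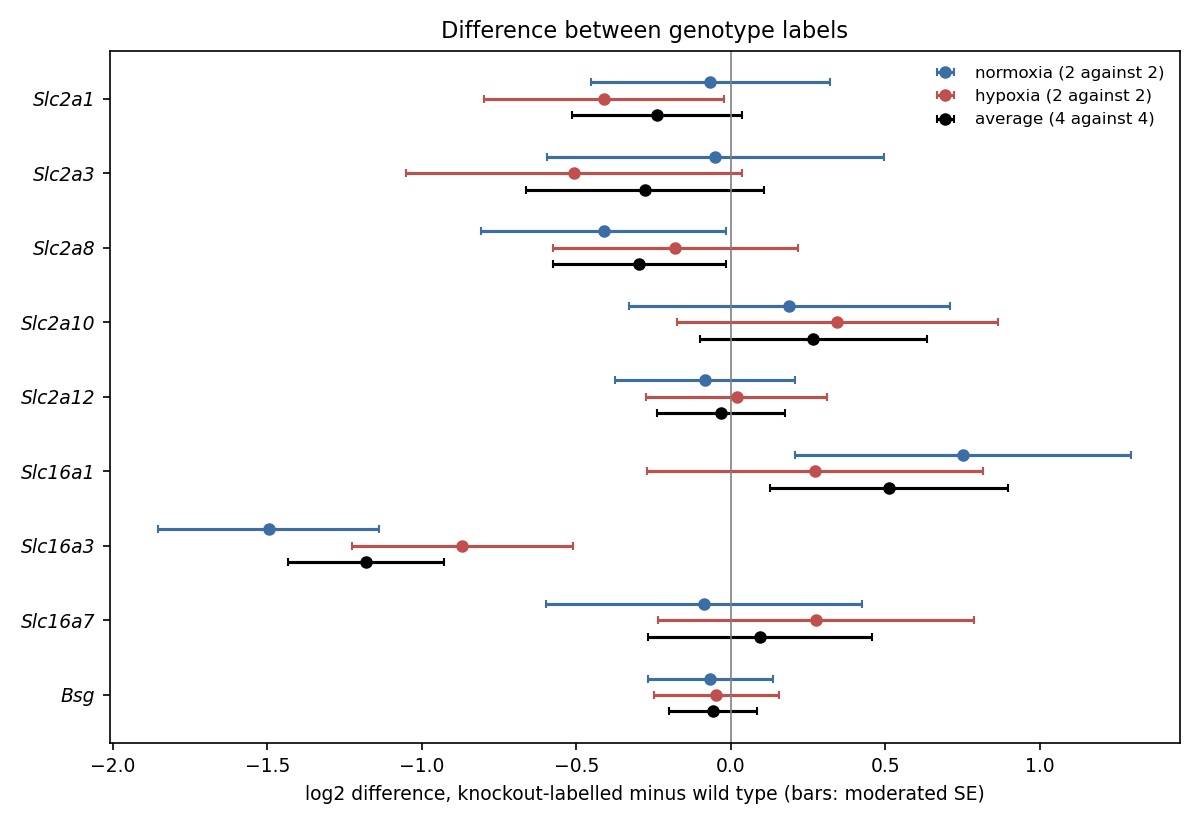
Log2 difference between knockout-labelled and wild-type cells (horizontal axis, knockout-labelled minus wild type) of the 9 tested transporters in normoxia (blue), in hypoxia (red) and on average (black), with moderated standard errors as bars. Slc16a3 lies furthest from 0, at -1.50, -0.87 and -1.18.

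No transporter was called between the genotypes, where 0.00588% of all genes were called in normoxia, 0.00588% in hypoxia and 0.047% on average. At an unadjusted p under 0.05, 1 transporter (Slc16a3) was lower in normoxia against 3.65% of all genes, 1 in hypoxia against 3.76% and 1 on average against 5.82%, and 0 were higher on average against 4.13%. In hypoxia the unadjusted limma p of Slc16a3 was 0.0493, just under the threshold. With a replicate block it was 0.0626, which took the count there to 0. The Slc16a3 difference in hypoxia was -0.88 without wild-type hypoxia replicate 1 and -0.86 without replicate 2 of that group. Without knockout-labelled hypoxia replicate 1 it was -0.94, and without replicate 2 of that group -0.79. The 4 knockout-labelled samples were below the 4 wild-type samples for 0 of the 9 transporters, against 4.86% of all genes, and above them for 0, against 3.96%. The median difference of the 9 was -0.06 on average, and that of all genes 0.03.

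Whether the transporters answered low oxygen differently in the genotypes was tested as the knockout-labelled response minus the wild-type response. Slc16a3 had a difference of 0.63 (SE 0.50, interval -0.60 to 1.85), with the larger response in knockout-labelled cells, where its normoxic level was lower. Slc2a1 had -0.34 (SE 0.55), Slc2a3 -0.46 (SE 0.77), Slc16a1 -0.48 (SE 0.77) and Bsg 0.02 (SE 0.28). None of the 9 was called, as was true of 0% of all genes, and 0 had an unadjusted p under 0.05, against 2.45% of all genes (416 genes). Without knockout-labelled normoxia replicate 2, Slc16a3 had such a p and a difference of 1.19 (adjusted p = 1), and without replicate 1 of that group its difference was 0.069.

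Other genes of glucose and lactate handling were read from lists of their families. Of the other SLC2 carriers 4 of 6 were tested, and none had an unadjusted p under 0.05 with hypoxia; the values with the smallest p were 0.13 (SE 0.23) for Slc2a6 and -0.06 (SE 0.14) for Slc2a13. Of the other SLC16 carriers 7 of the 10 found on the array were tested, of which 4 were higher, 3 lower and 0 at such a p. Among them Slc16a10, which carries aromatic amino acids, had -0.26 (SE 0.18). Of the 9 sodium-coupled carriers 3 were tested, and the other 6 lay under the dim level. The GLUT4 vesicle genes, all 12 tested, were higher for 6 and lower for 6 with a median of 0.01. Aspscr1, which encodes a tether of GLUT4 vesicles, had 0.21 (SE 0.16). In the 9 tested genes of glucose and lactate handling 1 was higher at an unadjusted p under 0.05: Hk2, the hexokinase that traps glucose in the cell, with 1.08 (SE 0.32, adjusted p = 1). Ldha, which makes lactate from pyruvate, had 0.33 (SE 0.20). Txnip, which lowers glucose uptake through GLUT1, had 0.09 (SE 0.19), and the MCT2 chaperone Emb -0.03 (SE 0.25).

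For scale, 10 of 12 reference genes of the hypoxia response were higher on average at an unadjusted p under 0.05, against 2.28% of all genes. This list was chosen with earlier results of these data known, and its median was 1.46. Those with the smallest p were Bnip3 with 2.55 (SE 0.28), Ero1a with 1.31 (SE 0.14), Ankrd37 with 4.14 (SE 0.48) and Ak4 with 2.23 (SE 0.27). Slc16a3, with 2.25, lay among these.

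Between the genotypes none of the relatives of the transporters was called. On average over oxygen, 2 of the 4 tested other SLC2 carriers were higher and 2 lower in knockout-labelled cells, all 7 other SLC16 carriers were lower, 1 gene of glucose and lactate handling was higher and 8 lower, and 5 GLUT4 vesicle genes were higher and 7 lower. At an unadjusted p under 0.05 these lists held 1, 1, 3 and 1 lower genes, where 5.82% of all genes were lower at such a p. The genes with the smallest p of each list are named here. Slc2a6, a carrier known from leukocytes, had values of 8.76 and 9.32 in the normoxic wild-type samples and 8.82 and 9.35 in the hypoxic ones. In knockout-labelled cells the values were 7.89 and 7.49 under normoxia and 8.14 and 7.68 under hypoxia. All knockout-labelled samples were below all wild-type samples, and the average difference was -1.26 (SE 0.23, adjusted p = 0.142). Its samples stood in nearly the same order as the mean of the macrophage and leukocyte markers, with replicate 2 highest in wild-type and lowest in knockout-labelled cells. The chaperone Emb had -0.94 (SE 0.25, adjusted p = 0.263) and followed that order in normoxia, with 9.32 and 9.67 in wild-type and 8.92 and 8.11 in knockout-labelled cells. The hexokinase Hk3 had -1.30 (SE 0.30), Slc16a6 -0.89 (SE 0.21), Ldhb -0.72 (SE 0.18) and the sorting receptor Sort1 -0.66 (SE 0.20). Slc2a13, a proton-coupled inositol carrier, was higher by 0.49 (SE 0.14). Slc2a6 differed from Slc16a3 in knockout-labelled normoxia, where replicate 1 was the higher for Slc2a6 and the lower for Slc16a3.

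Over the 8 samples, which share 4 groups and a common normalization, the genes tested with the pattern most like Slc2a1 were Egln3 (Pearson r of 0.984), Ak4 (0.983) and Ccdc58 (0.981). Those most like Slc16a3 were Tent5a (0.991), Pfkl (0.970) and Egln3 (0.954). Egln3, an oxygen-sensing prolyl hydroxylase, stood in both lists. Among the transporters, Slc2a1 had an r of 0.902 with Slc16a3, 0.905 with Slc2a3 and 0.875 with Bsg, but 0.12 with Slc2a10.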

How the data were processed

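Transcripts were measured on single-colour (Cy3) Agilent arrays in 8 samples, 2 in each of 4 groups. The deposited values were taken as log2 intensities from their range of 2.13 to 16.0; the log base, background correction and normalization are not given in the sources used here. All 8 columns had a median of 3.94 and nearly the same quantiles. The submitters' processing notes name limma, without its role. Spots were named through the platform annotation, updated through the RefSeq table of GRCm38.p6, and the spot with the highest mean stood for a gene. The dimmest 30% of genes were removed. The values were fitted across all genes in limma 3.58.1 (R 4.3.3; lmFit, eBayes) with a mean per group, all 8 samples, 4 residual and 2.25 prior degrees of freedom, and Benjamini-Hochberg adjustment over 17014 genes, called under 0.05. SE is the moderated standard error and intervals are 95%.

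The members, lists and tests were chosen with earlier results of these data known. All 10 members are named. Of each other list, up to 4 genes with the smallest p with hypoxia and up to 2 between genotypes could be named, besides Emb and Txnip, and the 3 genes most like Slc2a1 and Slc16a3. Fibroblast, cardiomyocyte, endothelial, macrophage and leukocyte, adipocyte, and smooth muscle and pericyte markers were read; the mean of the 9 endothelial markers ran from 4.65 to 4.97 and that of the 7 adipocyte markers from 4.02 to 4.54. The alternatives were quantile normalization, a shift to a common 75th percentile, other filters, the mean over spots, a variance trend, only the groups compared, replicate blocks and each sample left out.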

Additional observations from a re-analysis of the deposited data

How the results depend on the processing

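Of 1066 values of the 9 tested transporters under the alternatives, 994 kept their direction and their side of the threshold. Another 2 passed it (Slc16a3 with hypoxia on average, 2.25, under a variance trend and a random block). The other 70 turned in sign, and none of these belonged to Slc16a3. The 994 does not measure stability, because filters, a variance trend and blocks cannot change a log2 value. Nor can a fit of only the groups compared, or leaving out a sample of a group not compared. No transporter was called in the main fit, so none could lose a call. With all samples, only the mean over spots turned a sign: Slc16a7 with hypoxia became 0.32 in knockout-labelled cells and 0.038 on average, Slc2a12 between genotypes 0.31 in normoxia, -0.012 in hypoxia and 0.15 on average, and the difference of responses 0.093 for Slc2a3 and -0.32 for Slc2a12. This setting takes in spots under the dim level. Leaving out 1 sample turned the sign of small values, whose ranges follow. With hypoxia in wild-type cells, -0.59 to 0.26 for Slc2a10, -0.69 to 0.12 for Slc2a12, -1.35 to 0.16 for Slc16a7. With hypoxia in knockout-labelled cells, -0.65 to 0.34 for Slc2a8, -0.52 to 0.50 for Slc2a10, -0.32 to 0.73 for Slc16a1, -0.54 to 0.078 for Slc16a7. With hypoxia on average, -0.34 to 0.17 for Slc2a10. Between genotypes in normoxia, -0.59 to 0.45 for Slc2a1, -0.84 to 0.73 for Slc2a3, -0.32 to 0.70 for Slc2a10, -0.49 to 0.32 for Slc2a12, -0.28 to 0.10 for Slc16a7, -0.19 to 0.056 for Bsg. Between genotypes in hypoxia, -0.67 to 0.31 for Slc2a8, -0.094 to 0.78 for Slc2a10, -0.10 to 0.13 for Slc2a12, -0.15 to 0.69 for Slc16a1, -0.48 to 1.03 for Slc16a7, -0.20 to 0.11 for Bsg. Between genotypes on average, -0.50 to 0.021 for Slc2a1, -0.67 to 0.11 for Slc2a3, -0.23 to 0.17 for Slc2a12, -0.28 to 0.47 for Slc16a7, -0.14 to 0.022 for Bsg. For the difference of responses, -0.87 to 0.18 for Slc2a1, -1.24 to 0.33 for Slc2a3, -0.26 to 0.73 for Slc2a8, -0.35 to 0.66 for Slc2a10, -0.30 to 0.51 for Slc2a12, -1.01 to 0.047 for Slc16a1, -0.39 to 1.12 for Slc16a7, -0.14 to 0.18 for Bsg.

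The number of genes called with hypoxia on average was 0, and 15 under a variance trend or a random replicate block within genotype; in a fixed replicate block within genotype it was 0. Leaving out 1 sample gave 0 to 1 in wild-type cells, 0 to 7 in knockout-labelled cells, 0 to 4 on average and 0 to 7 for the difference of responses, where calls rest on the 1 sample left in a group, assumed to vary like the others. Between genotypes in normoxia it was 3 with the dimmest 50% removed, 0 in a fit of only the 2 groups, and 0 to 1 without 1 sample; in hypoxia 0 and 0 to 8. On average over oxygen it was 45 with the dimmest 50% removed, 62 under a variance trend, 1 with a replicate block or its random form, and 1 to 12 without 1 sample. Transporters at an unadjusted p under 0.05 with hypoxia in wild-type cells were 3 instead of 2 with a replicate block within genotype, which adds Slc16a1, or its random form, which adds Slc2a3, and 3 with crossed numbers. On average they were 2 instead of 4 with a replicate block and 2 to 3 without 1 sample, and in knockout-labelled cells 1 to 2. Between genotypes in hypoxia they were 0 instead of 1 with a replicate block or its random form and 0 to 1 without 1 sample, and for the difference of responses 0 to 1. Crossed numbers as a block, added after seeing the data, gave 453 genes called between genotypes on average, and 3 transporters at such a p, with 2 in normoxia and 0 in hypoxia. Deviations from the group means correlated at 0.31 and 0.34 between same-numbered samples within a genotype and at -0.26 and -0.32 between genotypes; no label says what a number shares. The cause of these changes was not tested. With the dimmest 50% removed Slc2a3 and Slc16a7 were not tested. The low signal of Slc2a3, Slc2a4 and Slc16a7 limits what can be read of them.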
